A study of Homo sapiens with 10 samples.

Results

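The comparison described here set HEK-293 cells that received siRNA 2 to LOC440173 against cells that received a control siRNA at the same concentration. LOC440173, now named LINC02893, is a long intergenic non-coding RNA, a transcript that lies between protein-coding genes and is not translated. The members were chosen by the sample titles: the 2 arrays of siRNA 2 and the 2 arrays of the control siRNA at 10 nM, 4 of the 10 arrays in the series. Every gene with a probe set of its own was tested, 18404 genes in all, and they are described by pathway and gene family.

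The series concerns non-coding RNAs enriched in the kidney, and all 10 arrays were of HEK-293, an established human embryonic kidney line that carries adenoviral early genes. Cells of the comparison received either the control duplex at 10 nM (n = 2) or siRNA 2 to LOC440173 at 10 nM (n = 2). A second duplex to the same RNA, siRNA 1 (10 nM, n = 2), is used below to see where the duplexes differed. The remaining arrays were the control at 100 nM (n = 2) and PAXIP1-AS1 siRNA at 100 nM (n = 2), which entered the fit; the control at 100 nM was compared with siRNA 2 only where both control doses were joined as an alternative. All duplexes were MISSION siRNAs delivered with the lipid reagent RNAiMax, and RNA was taken with TRIzol at 48 h. Each group was 1 duplex in 1 line, the duplex sequences were not analysed here, and the titles call the replicates biological without saying whether they were separate cultures. The p-values therefore measure the spread between these samples.

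A small interfering RNA is a short duplex whose guide strand is loaded into an Argonaute protein, which cuts transcripts that match the guide closely. The guide can also lower transcripts that match only its seed, so each duplex has its own set of secondary targets, and a second duplex to the same RNA is the usual companion in such a design. HEK-293 cells express a mixture of kidney, adrenal and neuronal genes, so both epithelial and synaptic families can be read in them.

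The deposited values were log2 probe signals, with array medians of 7.06 to 7.12. The 2 control arrays correlated at r = 0.994 across all 32321 probe sets and the 2 arrays of siRNA 2 at r = 0.9952, where probe sets are not independent replicates. A gene was called when limma's adjusted p was below 0.05. Of 18404 genes, 5512 (30.0%) were called with siRNA 2: 2307 (12.5%) were higher and 3205 (17.4%) were lower than with the control. A change of 2-fold or more was called for 46 genes upward (0.250%) and 218 downward (1.18%), and the median change over all genes was 0.01 on the log2 scale. The arrays of the 2 groups did not overlap for any of the 5512 called genes, but they did not overlap for 10170 genes (55.3%) in all, so a gene whose 2 groups were apart was not unusual. Differences below are siRNA 2 minus control on the log2 scale, given with the standard error after a ± sign. An exact permutation test of 2 against 2 arrays cannot go below p = 0.333. With only the 4 compared arrays in the fit, 1006 genes were called higher and 1782 lower, so group counts are also smaller there; the named genes below kept their call there unless stated.

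The cells were checked against markers of the line. The 8 HEK-293 markers had control signals from 6.79 for PAX2, a kidney transcription factor, to 11.38 for vimentin (VIM), beside a median of 7.66 over all genes. Blood cell, endothelial, fibroblast, hepatocyte and keratinocyte markers, 22 genes in all, held none that limma called, and 3 of 22 were higher at an unadjusted p below 0.05. Their control signals ran from 3.56 for PTPRC to 7.97 for COL1A1, with CDH5 at 5.67 and CD14 at 6.04. No detection call was used, so a gene at or below about the level of CD14 may be at background, and the size of its difference is then uncertain. Of the called genes named below, those with control signals this low were UNC13A, H1-6, DNAJC15, SNAP25, EPHA5, CASP10, CTSO, IFIT1 and ATP6V0D2, and those that low only with siRNA 2 were CALCB, CLDN1, EFEMP1 and SAMD9. Of the HEK-293 markers, 6 of 8 were called: NEFM and LIN28B were higher, and NEFL, VIM, KRT8 and KRT18 were lower. Of 4 kidney tubule markers 1 was called: LRP2, the endocytic receptor megalin, read 8.38 and 8.42 with the control and 9.26 and 9.24 with siRNA 2, higher by 0.85 (adjusted p = 2.95e-05). The other 3, AQP1, SLC34A1 and SLC12A1, differed by 0.036 or less. Of 3 podocyte markers, WT1 and PODXL were lower by 0.63 and 0.25, and NPHS1 was not called at 0.08. VIM, KRT8 and PODXL lost their call with only the compared arrays in the fit. Fewer cells of a kind and less RNA per cell cannot be told apart in bulk RNA, and the part of these marker changes in the results that follow was not tested.

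The targeted RNA was lower with siRNA 2. LINC02893 read 8.48 and 8.60 on the control arrays and 6.71 and 6.59 on the siRNA 2 arrays, and the groups lay far apart. The difference was -1.89 (SE 0.10, adjusted p = 1.38e-05), which left 27% of the control signal. With siRNA 1 the same probe set read 7.72 and 7.43, and the direct difference of siRNA 2 from siRNA 1 was -0.93 (adjusted p = 0.000177), so the RNA was lower with siRNA 2 than with siRNA 1.

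Several coding genes fell by more than the targeted RNA. ATP6V0D1, a subunit of the lysosomal proton pump, read 11.43 and 11.42 with the control and 8.91 and 8.90 with siRNA 2, a difference of -2.52 (SE 0.05, adjusted p = 3.8e-07). MYADM, a membrane protein first described in myeloid cells, went from 9.62 and 9.60 to 7.29 and 7.27. ANAPC13, a small subunit of the anaphase-promoting complex, went from 9.68 and 9.72 to 7.43 and 7.52. None of these 3 genes was called lower with siRNA 1, where the arrays read 11.43 and 11.47 for ATP6V0D1, 10.04 and 9.98 for MYADM and 9.71 and 9.73 for ANAPC13. Other genes with falls of 2 or more on the log2 scale were TNFRSF10D, a decoy receptor for the death ligand TRAIL, at -2.27. They also included PPIF, the mitochondrial cyclophilin, at -2.26, RCAN3, a calcineurin regulator, at -2.24, ZCCHC12 at -2.24 and SEPTIN3, a neuronal septin, at -2.15. All of these were called under every alternative processing that was run.

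Fewer genes rose by much. UNC13A, which primes synaptic vesicles for release, read 5.71 and 5.80 with the control, a signal near that of markers of other cell types, and 7.69 and 8.03 with siRNA 2, a difference of 2.11 (SE 0.10, adjusted p = 9.78e-06). HIPK3, a nuclear serine/threonine kinase, went from 8.26 and 8.38 to 10.21 and 10.16, a difference of 1.86 (SE 0.06, adjusted p = 2.45e-06). Both genes were clearly separated between the groups. Further rises were PITHD1 at 1.48, ARRDC3, an adaptor that directs receptors to degradation, at 1.48, and the small GTPases RAB3C at 1.47 and RAB39A at 1.45. The laminin chain LAMC1 rose by 1.44, the ephrin receptor EPHA7 by 1.36, the giant cadherin FAT4 by 1.29 and the neuronal RNA-binding protein ELAVL2 by 1.15.

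**Figure D1:**
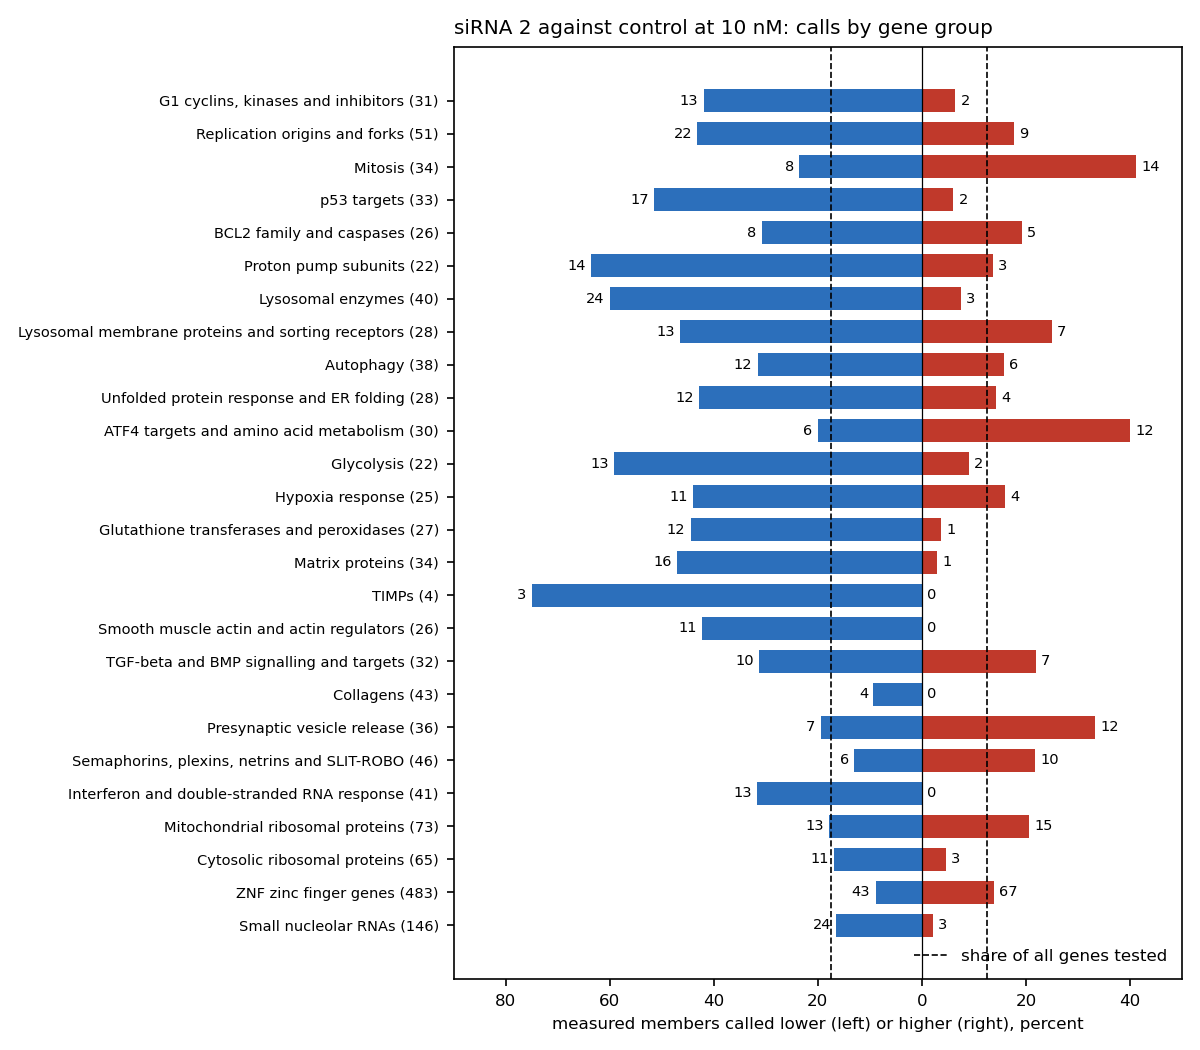
Share of each gene group called lower (blue, to the left) and higher (red, to the right) with siRNA 2 than with the control, in percent of measured members, with counts beside the bars; dashed lines mark the share over all genes, 17.4% lower and 12.5% higher. Proton pump subunits, lysosomal enzymes and glycolysis have the longest blue bars of the larger groups shown, at 63.6%, 60% and 59.1%.

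More lysosomal genes were lower than higher with siRNA 2. Lysosomes are acidified by a rotary proton pump whose membrane sector and cytosolic sector are built from many subunits, and their hydrolases degrade proteins, glycans and lipids only in that acid. The enzymes are carried there by mannose 6-phosphate receptors. Many of these genes share promoters that bind TFEB, TFE3 and MITF. Of 22 measured proton pump subunits, 14 were lower (63.6%, where all genes gave 17.4%) and 3 were higher (12.5% of all genes), with a median change of -0.26. Of 40 lysosomal enzymes, 24 were lower (60%) and 3 higher, with a median of -0.37. Of 28 lysosomal membrane proteins and sorting receptors, 13 were lower (46.4%) and 7 higher, with a median of -0.13.

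Within the proton pump, ATP6V0D1 stood apart from the rest. This subunit joins the rotating membrane ring to the central stalk. ATP6V1H, a regulatory subunit of the cytosolic sector, read 8.58 and 8.66 with the control and 7.76 and 7.90 with siRNA 2, a difference of -0.79 (SE 0.07, adjusted p = 9.5e-05). ATP6V0E1 of the membrane sector fell by 0.63 ± 0.05 (log2 ± SE) and ATP6V1C2 by 0.66 ± 0.10. The 3 subunits called higher changed little: ATP6V1B1 at 0.25, ATP6AP1 at 0.21 and ATP6V0D2 at 0.21 each lost the call when 1 of several arrays was left out, and with only the compared arrays in the fit. Leaving out 1 array at a time gave 10 to 13 lower and 0 or 1 higher Proton pump subunits, and 9 were lower with only the compared arrays in the fit.

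The enzymes that fell covered several substrate classes. Cathepsin H (CTSH), an aminopeptidase, read 9.17 and 9.18 with the control and 8.01 and 8.13 with siRNA 2, a difference of -1.11 (SE 0.06, adjusted p = 1.91e-05). NEU1, the lysosomal sialidase, went from 9.66 and 9.52 to 8.53 and 8.53, and GLA, the alpha-galactosidase that is deficient in Fabry disease, went from 12.16 and 12.15 to 11.30 and 11.33. The siRNA 2 arrays were below both control arrays for all 3 genes. HGSNAT, an acetyltransferase of heparan sulphate breakdown, fell by 1.08 ± 0.08, the cysteine protease CTSO by 1.10 ± 0.17 and the aspartic protease CTSD by 0.60 ± 0.06. Acid sphingomyelinase (SMPD1), which belongs to the sphingolipid list, fell by 0.91 ± 0.06.

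A few enzymes moved the other way. LIPA, the acid lipase that releases cholesterol from its esters, rose from 9.90 and 9.98 to 10.37 and 10.39, and the protease CTSL rose from 8.92 and 9.01 to 9.36 and 9.42. Both were called, with differences of 0.44 (adjusted p = 0.000392) and 0.43 (adjusted p = 0.0016). ARSB, a sulphatase, was higher by 0.25, a call that was lost with only the compared arrays in the fit. The counts over the Lysosomal enzymes moved by less than 1.5 times without any single array.

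Membrane proteins and sorting receptors were mixed. LAMP1, the abundant lysosomal membrane glycoprotein, read 9.95 and 9.94 with the control and 8.90 and 8.98 with siRNA 2, a difference of -1.0 (SE 0.05, adjusted p = 1.16e-05). LAMP2 fell by 0.44 ± 0.06, the cystine exporter CTNS by 0.82 ± 0.06, TMEM192 by 0.77 ± 0.09 and the mannose 6-phosphate receptor IGF2R by 0.73 ± 0.05. The cholesterol exporter NPC1 rose by 0.44 ± 0.05, GNPTAB, which makes the mannose 6-phosphate tag, by 0.49 ± 0.07 and the sialic acid exporter SLC17A5 by 0.36 ± 0.07. Among the transcription factors of the system, TFE3 rose by 0.72 (SE 0.06, adjusted p = 9.84e-05), whereas TFEB was not called at -0.02 (95% interval -0.27 to 0.22). In the fit of the compared arrays alone, 4 of the Lysosomal membrane proteins and sorting receptors were called higher in place of 7.

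**Figure D2:**
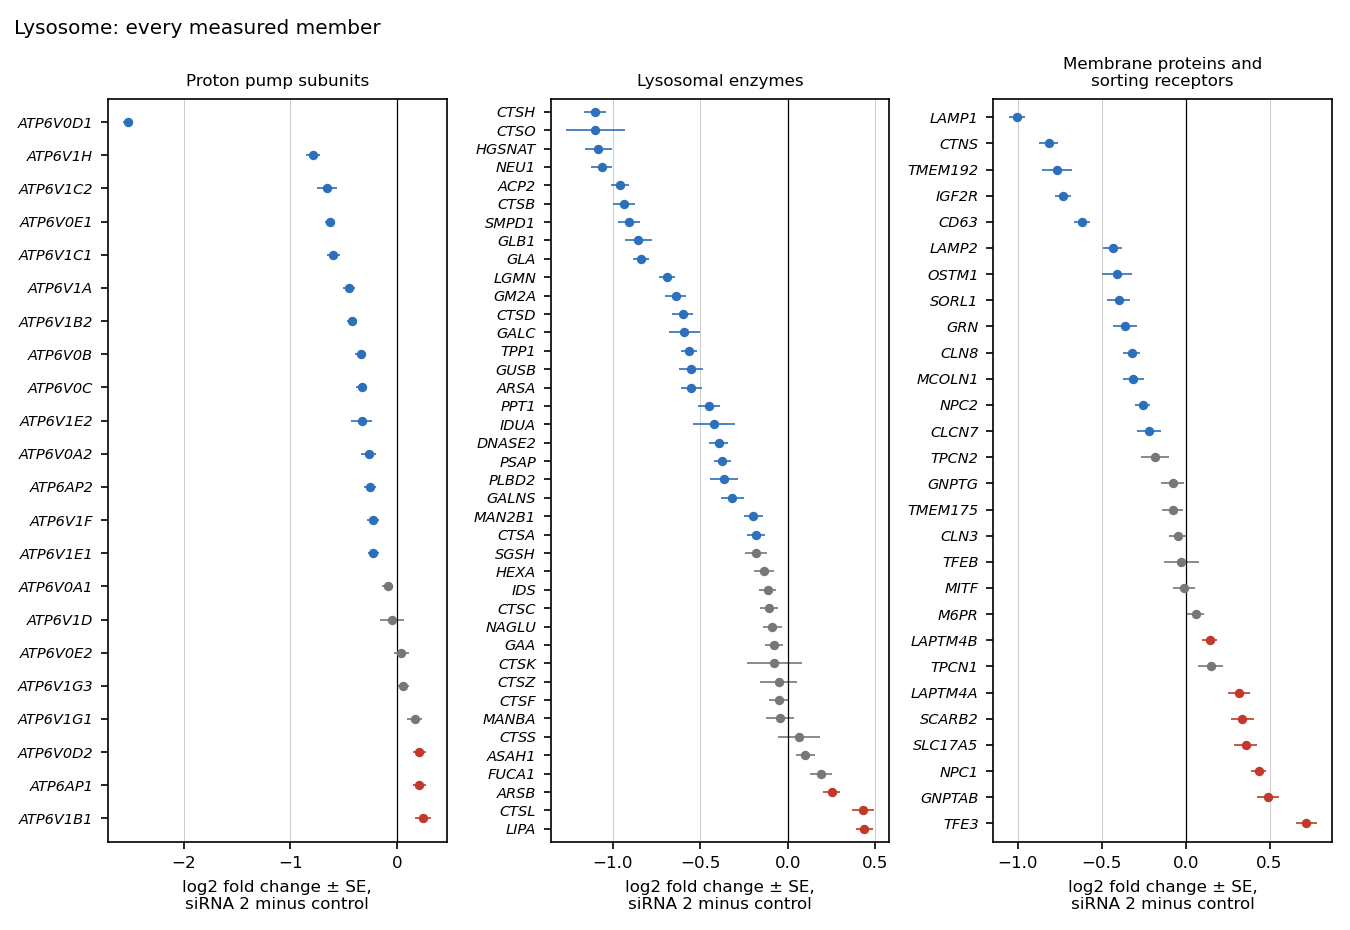
Log2 difference, siRNA 2 minus control, with its standard error for every measured proton pump subunit, lysosomal enzyme and lysosomal membrane or sorting protein (blue called lower, red called higher, grey not called). ATP6V0D1 at -2.52 lies far to the left of all other members, and most enzymes lie left of 0.

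Promoters of these genes were read for CACGTG, the palindromic E-box that TFEB and TFE3 bind, since most enzymes and pump subunits were called lower. The window was the 250 bases before each start site on GRCh38.p14 as given by RefSeq, and a match is a description of letters only. CACGTG was present for 1395 of 14230 genes with a promoter (9.8%) and for 12.3% of all genes called lower. It was present for 8 of 27 lysosomal enzymes (29.6%), 9 of 25 membrane and sorting genes (36%) and 4 of 15 proton pump subunits (26.7%). Among the membrane and sorting genes, it was present for 6 of 11 called lower (54.5%) and 3 of 14 others (21.4%), whereas among the enzymes it was present for 5 of 18 called lower (27.8%) and 3 of 9 others (33.3%), and among the pump subunits for 2 of 8 called lower (25%) and 2 of 7 others (28.6%). The windows of 4 genes that fell are shown 5′ to 3′ on the gene's strand, with CACGTG in capitals: ATP6V0D1 (chr16:67481158-67481407, minus strand), NEU1 (chr6:31862822-31863071, minus strand), LAMP1 (chr13:113296989-113297238, plus strand) and IGF2R (chr6:159968832-159969081, plus strand).
ATP6V0D1: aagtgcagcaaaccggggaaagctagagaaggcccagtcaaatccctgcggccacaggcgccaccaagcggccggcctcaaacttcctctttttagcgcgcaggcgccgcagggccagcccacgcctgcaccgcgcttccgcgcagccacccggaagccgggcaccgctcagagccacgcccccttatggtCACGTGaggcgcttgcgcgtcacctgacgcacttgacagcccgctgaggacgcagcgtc
NEU1: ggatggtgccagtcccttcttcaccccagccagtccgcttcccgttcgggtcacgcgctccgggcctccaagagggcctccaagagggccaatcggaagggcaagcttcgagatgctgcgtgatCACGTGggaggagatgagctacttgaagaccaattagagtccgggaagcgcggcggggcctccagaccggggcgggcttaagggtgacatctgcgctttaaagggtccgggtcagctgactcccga
LAMP1: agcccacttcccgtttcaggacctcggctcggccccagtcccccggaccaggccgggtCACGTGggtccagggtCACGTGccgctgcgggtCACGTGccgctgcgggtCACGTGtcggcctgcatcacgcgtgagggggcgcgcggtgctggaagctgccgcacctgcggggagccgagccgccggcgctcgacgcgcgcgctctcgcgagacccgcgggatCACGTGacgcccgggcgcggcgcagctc
IGF2R: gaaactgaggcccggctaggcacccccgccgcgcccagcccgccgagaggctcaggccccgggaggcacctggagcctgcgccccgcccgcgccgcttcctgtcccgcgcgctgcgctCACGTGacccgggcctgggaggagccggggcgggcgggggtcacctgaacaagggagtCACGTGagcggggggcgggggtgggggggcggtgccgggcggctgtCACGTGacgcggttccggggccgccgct
The LAMP1 window holds 5 copies and the IGF2R window 3, while ATP6V0D1, with the largest fall, holds 1.

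Autophagy, which delivers cytoplasm to the lysosome, held both falls and rises. Of 38 autophagy genes, 12 were lower (31.6%) and 6 higher, with a median of -0.07. GABARAPL2, an ATG8-family protein of the autophagosome membrane, read 12.04 and 12.01 with the control and 10.81 and 10.79 with siRNA 2, a difference of -1.23 (SE 0.05, adjusted p = 5.1e-06). Its relative GABARAPL1 went the other way, from 9.79 and 9.93 to 10.57 and 10.62. The cargo receptor OPTN fell by 0.69 ± 0.07 and the initiation factor ATG13 by 0.57 ± 0.05, while the protease ATG4C rose by 0.52 ± 0.09. MAP1LC3B, the usual autophagosome marker, was not called at -0.25. Without siRNA 2 replicate 2, only 2 Autophagy genes were higher, and with only the compared arrays in the fit 6 were lower and 2 higher.

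The mTORC1 kinase complex sits on the lysosome and senses amino acids through the Ragulator scaffold. Of 30 genes of mTORC1 and amino acid sensing, 10 were higher (33.3%) and 8 lower (26.7%). The Ragulator subunit LAMTOR5 fell by 0.89 ± 0.07, and LAMTOR3 rose by 0.51 ± 0.08. The inhibitory genes SESN3, DDIT4 and DEPTOR rose, with SESN3 going from 9.54 and 9.58 to 10.50 and 10.50, a difference of 0.94 (adjusted p = 1.66e-05), DDIT4 higher by 0.66 ± 0.07 and DEPTOR by 0.47 ± 0.05. TSC2, another inhibitor, fell by 0.59 ± 0.05. Lower calls in mTORC1 and amino acid sensing numbered 5 without siRNA 2 replicate 2 or without control replicate 1, and only the compared arrays gave 5 higher and 3 lower.

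Endosomal coats changed in both directions. Of 38 ESCRT and retromer genes, 10 were lower and 8 higher. For ESCRT and retromer, the higher count was 5 without siRNA 2 replicate 2 or control replicate 1. VPS25 of ESCRT-II fell by 0.80 ± 0.05 and the sorting nexin SNX5 by 0.43 ± 0.06. The disassembly ATPase VPS4A rose by 0.82 ± 0.06, SNX6 by 0.70 ± 0.07 and VPS36, the partner of VPS25 in ESCRT-II, by 0.59 ± 0.08.

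Many genes that drive entry into S phase were lower with siRNA 2. D-type cyclins with CDK4 or CDK6, and cyclin E with CDK2, phosphorylate the retinoblastoma protein and so release E2F factors, which switch on replication and nucleotide genes. Of 31 G1 cyclins, kinases and inhibitors, 13 were lower (41.9%) and 2 higher (6.45%), with a median of -0.10. CCND2 (cyclin D2) read 10.05 and 10.14 with the control and 8.23 and 8.37 with siRNA 2, a difference of -1.80 (SE 0.07, adjusted p = 5.1e-06). CCNE1 (cyclin E1) went from 9.48 and 9.59 to 8.0 and 8.26, a difference of -1.40 (SE 0.09, adjusted p = 2.41e-05). For both cyclins the groups lay well apart.

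Other members of the G1 group fell too. CDK6 went from 8.98 and 9.16 to 7.92 and 8.20, and the repressor E2F5 from 9.92 and 10.02 to 8.33 and 8.58. The activator E2F1 went from 9.63 and 9.50 to 8.82 and 8.75, a difference of -0.78 (SE 0.06, adjusted p = 5.02e-05). The inhibitors fell as well, with CDKN1B (p27) lower by 0.58 ± 0.05 and CDKN1A (p21) by 0.30 ± 0.06, the latter not called with only the compared arrays in the fit. E2F6, a repressor, rose by 0.37 ± 0.06. CCND1 at 0.07 and RB1 at 0.03 were not called.

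Replication genes were lower as a majority of those called. Of 51 genes of replication origins and forks, 22 were lower (43.1%) and 9 higher (17.6%), with a median of -0.07. GINS3, a subunit of the replicative helicase, read 10.03 and 10.07 with the control and 8.98 and 9.03 with siRNA 2, a difference of -1.04 (SE 0.05, adjusted p = 1.08e-05). The helicase subunits MCM2 and MCM5 fell by 0.68 ± 0.05 and 0.54 ± 0.05, GINS4 by 0.74 ± 0.05 and the sliding clamp PCNA by 0.36 ± 0.05. Members that rose included RPA2, which coats single-stranded DNA, at 0.59 ± 0.07, and ORC5 of the origin recognition complex at 0.53 ± 0.06. Only the compared arrays left 10 lower and 3 higher among Replication origins and forks, and the higher count was 5 without siRNA 2 replicate 1 and 4 without siRNA 2 replicate 2 or control replicate 1.

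Nucleotide enzymes held 2 deep falls among 18 genes, of which 5 were lower and 2 higher. TK1, the S-phase thymidine kinase, read 10.12 and 10.02 with the control and 8.69 and 8.59 with siRNA 2, a difference of -1.43 (SE 0.06, adjusted p = 8.31e-06). DUT, which removes dUTP, went from 8.46 and 8.59 to 7.46 and 7.40. DCK, the deoxycytidine kinase, rose by 0.61 ± 0.07, and RRM2 was not called at -0.02. In the fit of the compared arrays alone, 2 of the Nucleotide synthesis genes were lower.

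Promoters of these genes were read for the E2F-type motifs TTCCCGC and TTGGCGC on both strands, in the same windows. Either motif was present for 1883 of 14230 genes (13.2%) and for 16.6% of all genes called lower. It was present for 20 of 44 replication genes (45.5%), in like shares of those called lower (9 of 20, 45%) and the others (11 of 24, 45.8%). It was present for 6 of 23 G1 genes (26.1%), among them 2 of 10 called lower (20%) and 4 of 13 others (30.8%). The windows of E2F1 (chr20:33686386-33686635, minus strand) and MCM6 (chr2:135876444-135876693, minus strand) show the motifs in capitals, 5′ to 3′ on the gene's strand.
E2F1: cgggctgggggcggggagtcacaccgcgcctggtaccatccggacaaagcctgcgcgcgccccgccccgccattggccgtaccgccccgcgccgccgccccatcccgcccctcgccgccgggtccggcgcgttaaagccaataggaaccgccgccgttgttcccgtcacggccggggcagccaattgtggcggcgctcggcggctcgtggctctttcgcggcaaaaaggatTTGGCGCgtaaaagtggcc
MCM6: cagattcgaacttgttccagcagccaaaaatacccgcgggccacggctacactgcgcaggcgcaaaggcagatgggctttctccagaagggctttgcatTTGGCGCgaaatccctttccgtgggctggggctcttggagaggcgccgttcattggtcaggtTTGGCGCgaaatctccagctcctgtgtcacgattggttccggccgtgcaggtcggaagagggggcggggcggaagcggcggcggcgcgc
MCM6, another helicase subunit, read 10.53 and 10.68 with the control and 10.14 and 10.19 with siRNA 2.

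Mitotic genes leaned the other way in number. Of 34 mitosis genes, 14 were higher (41.2%) and 8 lower (23.5%), with a median of 0.23. The falls were the deeper ones: BIRC5 (survivin), a chromosomal passenger protein, went from 9.86 and 9.85 to 8.83 and 8.85, a difference of -1.01 (SE 0.05, adjusted p = 8.92e-06). The kinase AURKA went from 10.38 and 10.54 to 9.45 and 9.67, and MYBL2 and CDC25B fell by 0.79 ± 0.05 and 0.72 ± 0.06. The rises were smaller: the kinases BUB1 at 0.41 ± 0.07, NEK2 at 0.40 ± 0.05 and PBK at 0.45 ± 0.07, and ECT2, which sets the cleavage furrow, at 0.45 ± 0.06. The higher count in Mitosis was 9 without siRNA 2 replicate 2 or without control replicate 1, and 6 with only the compared arrays in the fit.

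Complexes that act on mitotic chromosomes held falls of single subunits. Of 18 anaphase-promoting complex genes, 5 were lower and 1 higher, with ANAPC13 far below the next, its activator FZR1 at -0.51 ± 0.08. Of 22 cohesin and condensin genes, 7 were lower and 4 higher, but 9 genes of Cohesin and condensin were higher and 7 lower with the trend and robust prior. The cohesin core subunit RAD21 fell by 0.79 ± 0.07, its protector sororin (CDCA5) by 0.86 ± 0.07 and the acetyltransferase ESCO2 by 0.72 ± 0.09, while STAG1 rose by 0.40 ± 0.07 and the loader NIPBL by 0.39 ± 0.08. In the homologous recombination and Fanconi list, the core complex gene FANCG fell by 0.54 ± 0.05.

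**Figure D3:**
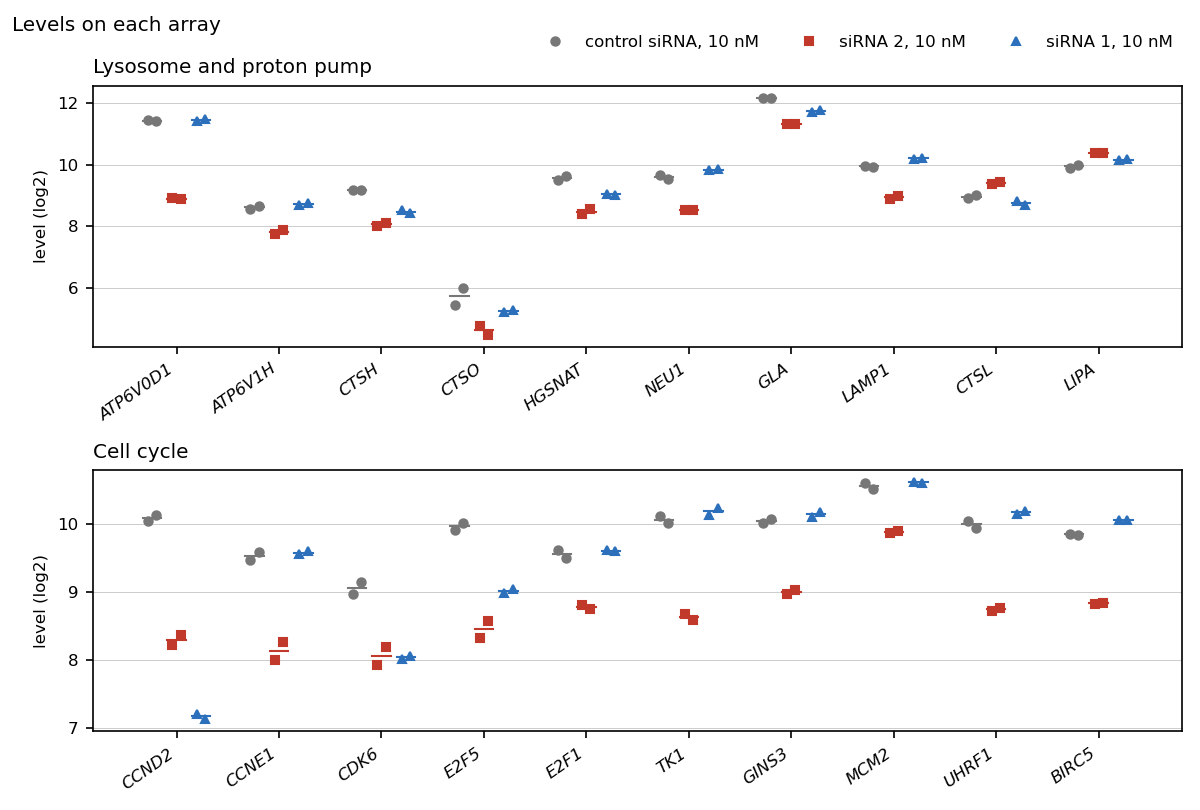
Log2 signal on every array for 10 lysosomal genes and 10 cell cycle genes: control (grey circles), siRNA 2 (red squares) and siRNA 1 (blue triangles), with a bar at each group mean. The siRNA 2 arrays lie below both control arrays for all genes shown except CTSL and LIPA, and ATP6V0D1 drops from 11.42 and 11.43 to 8.90 and 8.91.

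Chromatin regulators were divided. UHRF1, which brings the maintenance methyltransferase to replicating DNA, read 10.05 and 9.95 with the control and 8.73 and 8.76 with siRNA 2, a difference of -1.26 (SE 0.06, adjusted p = 9.78e-06). TET1, which oxidises methylcytosine, rose by 0.46 ± 0.05 and the repair glycosylase TDG by 0.39 ± 0.07. In all, 4 of 14 DNA methylation genes were lower and 3 higher. Of 24 Polycomb genes, 6 were higher and 4 lower, with the accessory subunits PHF19 and MTF2 lower by 1.17 ± 0.06 and 0.54 ± 0.05, and PCGF6 and PCGF3 higher by 0.66 ± 0.06 and 0.44 ± 0.06. The balance of Polycomb complexes turned to 9 lower and 6 higher with the trend and robust prior, 9 lower and 7 higher with dim genes left out, and 5 lower and 4 higher without siRNA 2 replicate 2. Of 10 genes of the KMT2C/KMT2D complex, RBBP5 and KMT2D fell by 0.75 ± 0.08 and 0.55 ± 0.04, while KMT2C and PAXIP1 rose by 0.63 ± 0.05 and 0.38 ± 0.05.

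Of 71 histone genes, 16 were lower (22.5%) and 6 higher (8.45%). Histone genes are near-identical copies, so their probe sets may share signal and single members are uncertain. H2AC21 fell by 1.35 ± 0.07 and the linker histone gene H1-3 by 1.14 ± 0.08, while H2BC14 rose by 1.49 ± 0.10 and H1-6, a linker histone of the testis, by 1.92 ± 0.10. Among Histone genes, the fit of the compared arrays alone gave 9 lower and 3 higher.

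About as many p53 targets were lower with siRNA 2 as were not. The list holds genes for cell cycle arrest, DNA repair and death receptors, and the ubiquitin ligase MDM2. Of 33 p53 targets, 17 were lower (51.5%) and 2 higher (6.06%), with a median of -0.26. MDM2 read 11.08 and 11.17 with the control and 10.21 and 10.36 with siRNA 2, a difference of -0.84 (SE 0.06, adjusted p = 5.99e-05). TP53INP1, a stress-induced cofactor, went from 8.96 and 9.11 to 7.99 and 7.90. The ectodysplasin receptor EDA2R fell by 0.98 ± 0.10, the mitophagy gene SPATA18 by 0.93 ± 0.06 and the oxidoreductase TP53I3 by 0.91 ± 0.07. The 2 called higher were PMAIP1 (NOXA), higher by 0.45 ± 0.07, and the bypass polymerase POLH, higher by 0.37 ± 0.06. Of the p53 targets, 11 were lower in the fit of the compared arrays alone. Their median change was also negative with siRNA 1, at -0.20, and with the PAXIP1-AS1 siRNA, used at a higher dose, at -0.32. A lower median of this group was thus not particular to siRNA 2. In the direct test against siRNA 1, 14 p53 targets were lower (42.4%) and 5 higher (15.2%) with siRNA 2. That test gave 19.0% lower and 18.2% higher over all genes, and the median direct difference of the p53 targets was -0.08.

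Death receptor genes held 1 deep fall. TNFRSF10D read 9.29 and 9.17 with the control and 7.04 and 6.88 with siRNA 2, and the groups were widely separated. The initiator caspase gene CASP10 fell by 0.56 ± 0.10, and TNFRSF21 rose by 0.50 ± 0.05. In all, 4 of 17 death receptors and ligands were lower and 1 higher, and FAS was not called at -0.28. Among 26 BCL2 family and caspase genes, 8 were lower and 5 higher, and falls were seen on both sides of the pathway. The survival genes BCL2L1 and MCL1 fell by 0.88 ± 0.08 and 0.44 ± 0.06, and the death genes BAX, CASP2 and CASP9 by 0.51 ± 0.06, 0.95 ± 0.05 and 0.63 ± 0.05, while BNIP3 rose by 0.48 ± 0.06. The counts for the BCL2 family and caspases were 5 lower and 3 higher without siRNA 2 replicate 1 or without control replicate 2, 2 higher without siRNA 2 replicate 2, and 5 lower and 2 higher with only the compared arrays.

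The early secretory pathway held deep falls of single genes. Proteins enter the endoplasmic reticulum through the SEC61 translocon, leave in COPII vesicles and are returned from the Golgi by KDEL receptors in COPI vesicles. KDELR3, a KDEL receptor, read 9.37 and 9.47 with the control and 7.35 and 7.63 with siRNA 2, a difference of -1.93 (SE 0.09, adjusted p = 8.31e-06), while KDELR1 was not called at -0.06. SPCS3, a subunit of signal peptidase, went from 10.35 and 10.45 to 8.55 and 8.73, a difference of -1.76 (SE 0.07, adjusted p = 6.96e-06). The signal recognition particle receptor subunits SRPRA and SRPRB fell by 0.64 ± 0.05 and 0.54 ± 0.05. SEC61A1 and SEC61A2, close paralogs whose probe sets may share signal, fell by 0.52 ± 0.05 and 0.92 ± 0.05, while SEC61B rose by 0.72 ± 0.07 and the COPII GTPase SAR1B by 0.54 ± 0.06.

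In number these groups were lower more often than all genes (17.4%), at 29.2% for ER retrieval and COPI coat and 33.3% for COPII coat and translocon. Their higher shares were 12.5% and 21.2%, beside 12.5% of all genes. Of 24 genes of ER retrieval and the COPI coat, 7 were lower and 3 higher. The cargo receptors TMED3 and TMED5 rose by 0.61 ± 0.07 and 0.55 ± 0.05. The lower count for ER retrieval and COPI coat was 3 without siRNA 2 replicate 1 or replicate 2 and 4 without control replicate 2. Of 33 genes of the COPII coat and translocon, 11 were lower and 7 higher, which became 4 higher without siRNA 2 replicate 2 or control replicate 1, and 7 lower and 3 higher with only the compared arrays.

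Folding genes of the endoplasmic reticulum were lower more often than higher. Of 28 genes of the unfolded protein response and ER folding, 12 were lower (42.9%) and 4 higher (14.3%), with a median of -0.12. HYOU1, a large chaperone of the HSP70 class, read 10.12 and 10.13 with the control and 8.53 and 8.57 with siRNA 2, a difference of -1.58 (SE 0.05, adjusted p = 2.14e-06). CREB3L2, a transcription factor released from the membrane by cleavage, went from 10.38 and 10.36 to 9.16 and 9.23. XBP1 fell by 0.52 ± 0.06 and the disulphide isomerase PDIA4 by 0.42 ± 0.05. The sensor ERN1 rose by 0.43 ± 0.07, HERPUD1 by 0.45 ± 0.06 and the oxidase ERO1B by 0.55 ± 0.10, while DDIT3 was not called at -0.05. HSPA5 was lower by 0.28 ± 0.05, but was not called with only the compared arrays, where 6 genes of the Unfolded protein response and ER folding were lower.

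Amino acid genes moved in both directions. ATF4 induces serine and asparagine synthesis, amino acid transporters and aminoacyl-tRNA synthetases when amino acids are short. Of 30 ATF4 targets and amino acid genes, 12 were higher (40%) and 6 lower (20%), with a median of 0.04. PHGDH, the first enzyme of serine synthesis, read 11.37 and 11.35 with the control and 12.19 and 12.18 with siRNA 2, a difference of 0.83 (SE 0.05, adjusted p = 2.58e-05). SHMT2, which uses serine in the mitochondrion, rose by 0.71 ± 0.05 and the cysteine-forming enzyme CTH by 0.53 ± 0.09. Several transporters were lower, with SLC7A5 lower by 0.57 ± 0.05, SLC1A4 by 0.63 ± 0.08 and the glycine carrier SLC6A9 by 0.54 ± 0.08. ATF4 itself was not called at 0.09. With only the compared arrays in the fit, 4 of the ATF4 targets and amino acid metabolism genes were higher and 3 lower.

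Of 19 cytosolic tRNA synthetases, 6 were higher and 4 lower. For Cytosolic tRNA synthetases, the higher count was 3 without siRNA 2 replicate 2. FARSA rose by 0.66 ± 0.06, LARS1 by 0.46 ± 0.05 and GARS1 by 0.39 ± 0.06, while WARS1 fell by 0.60 ± 0.06 and QARS1 by 0.43 ± 0.05. Each of these enzymes joins 1 amino acid to its tRNA.

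Many glutathione-handling enzymes were lower. Glutathione transferases join glutathione to reactive compounds, and glutathione peroxidases use it to remove peroxides. Of 27 such genes, 12 were lower (44.4%) and 1 higher, with a median of -0.19. MGST1, a membrane-bound transferase, read 8.61 and 8.90 with the control and 6.90 and 7.0 with siRNA 2, a difference of -1.81 (SE 0.13, adjusted p = 5.3e-05). Its relative MGST2 fell by 0.82 ± 0.08. GSTM4 and GSTM2, near-identical paralogs that may share signal, fell by 1.31 ± 0.13 and 1.21 ± 0.07. With only the compared arrays in the fit, 7 of the Glutathione transferases and peroxidases were lower.

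NRF2 targets, which include the glutathione synthesis enzymes, were mixed: 7 of 23 were higher and 5 lower, with a median of 0.06. The 2 subunits of glutamate-cysteine ligase parted. The catalytic subunit GCLC went from 9.58 and 9.65 to 10.15 and 10.19, a rise of 0.56 (adjusted p = 0.00021), and the modifier GCLM went from 7.25 and 7.71 to 6.46 and 6.63, a difference of -0.94 (adjusted p = 0.00151). SRXN1 rose by 0.55 ± 0.05 and TXNRD1 by 0.44 ± 0.05, the drug exporter ABCC1 fell by 0.48 ± 0.05, and HMOX1 was not called at 0.06. The higher count of NRF2 targets was 4 without siRNA 2 replicate 2 or control replicate 1.

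Most glycolytic genes were lower. Of 22 glycolysis genes, 13 were lower (59.1%) and 2 higher (9.09%), with a median of -0.30, and these counts moved by less than 1.5 times when any single array was left out. PGK1, which makes ATP in the pathway, read 12.11 and 12.16 with the control and 10.97 and 11.06 with siRNA 2, a difference of -1.12 (SE 0.05, adjusted p = 9.44e-06). PFKFB3, which makes the activator of phosphofructokinase, went from 9.07 and 9.12 to 8.22 and 8.30. The glucose carrier SLC2A1 fell by 0.64 ± 0.05 and the aldolase ALDOC by 0.58 ± 0.06. PFKM rose by 0.38 ± 0.05, HK2 was not called at 0.08, and LDHA was lower by 0.28 ± 0.05, a call lost with only the compared arrays.

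Hypoxia-response genes were lower in 11 of 25 cases (44.0%) and higher in 4, with a median of -0.16. P4HA2, a collagen prolyl hydroxylase, went from 8.44 and 8.46 to 7.41 and 7.37, a difference of -1.06 (SE 0.06, adjusted p = 1.38e-05). ARNT, the partner of the hypoxia-inducible factors, went from 10.47 and 10.50 to 9.50 and 9.54. FAM162A fell by 1.23 ± 0.12 and the carbonic anhydrase CA12 by 1.0 ± 0.15, while HIF1A was not called at -0.20. Only 2 Hypoxia response genes were higher without siRNA 2 replicate 1 or replicate 2, and 1 with only the compared arrays.

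Lipid enzymes changed often and without a shared direction. Of 21 genes of fatty acid synthesis and desaturation, 9 were lower (42.9%) and 8 higher (38.1%). The elongase ELOVL6 read 9.34 and 9.39 with the control and 10.26 and 10.52 with siRNA 2, a rise of 1.03 (SE 0.09, adjusted p = 9.86e-05). The desaturase SCD rose by 0.56 ± 0.06, ACSL4 by 0.60 ± 0.07 and ELOVL4 by 0.58 ± 0.07. The desaturases FADS2 and SCD5 fell by 0.69 ± 0.05 and 0.60 ± 0.06, and ACSS2, which activates acetate, by 0.65 ± 0.05. The calls for SCD and SCD5, related desaturases, were thus opposite in sign. With dim genes left out, 10 genes of Fatty acid synthesis and desaturation were higher and 8 lower.

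Of 21 cholesterol genes, 6 were higher and 4 lower, but this balance turned with the processing. For Cholesterol synthesis, 10 were lower and 6 higher with dim genes left out, 8 lower and 6 higher with the trend and robust prior, and with only the compared arrays 4 were higher and 0 lower. ACAT2, which joins acetyl units at the start of the pathway, rose by 1.02 ± 0.08, MSMO1 by 0.69 ± 0.08 and CYP51A1 by 0.50 ± 0.05. Among 25 sphingolipid enzymes, 9 were higher and 7 lower. The ceramide kinase CERK read 10.26 and 10.19 with the control and 8.79 and 8.80 with siRNA 2, a difference of -1.42 (SE 0.05, adjusted p = 5.07e-06). SPTLC2, of the enzyme that starts the pathway, fell by 0.83 ± 0.08, while glucosylceramide synthase (UGCG) rose by 0.69 ± 0.08 and sphingomyelin synthase SGMS1 by 0.57 ± 0.08. The higher count of Sphingolipid enzymes was 4 or 5 when 1 of 3 arrays was left out (siRNA 2 replicate 1, siRNA 2 replicate 2 or control replicate 1). With only the compared arrays, 4 Sphingolipid enzymes were lower and 2 higher.

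Calls in mitochondrial groups went both ways. Of 33 complex I genes, 7 were higher (21.2%) and 3 lower (9.09%), and of 18 ATP synthase genes 5 were lower (27.8%) and 1 higher (5.56%), beside 12.5% higher and 17.4% lower over all genes. Over the alternatives, Complex I gave 0 to 11 higher and 0 to 5 lower genes. For Complex I, the higher count was 3 without siRNA 2 replicate 2 and 4 without siRNA 2 replicate 1 or control replicate 1, and the lower count was 0 without siRNA 2 replicate 1 or siRNA 2 replicate 2 and 1 without control replicate 1 or control replicate 2. For ATP synthase, the lower count was 3 without siRNA 2 replicate 1 or control replicate 1. A deep fall was that of PPIF, which gates the permeability transition pore and went from 10.56 and 10.48 to 7.99 and 8.54. COX7A2L, which helps form supercomplexes, fell by 0.46 ± 0.05, the ATP synthase subunit ATP5MJ by 0.76 ± 0.08, and the succinate dehydrogenase anchor SDHD rose by 0.41 ± 0.05. The citrate carrier SLC25A1 fell by 0.68 ± 0.06.

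Many matrix proteins were lower with siRNA 2. Fibronectin and related proteins form the scaffold outside cells, integrins link it to actin, and TIMPs inhibit the metalloproteases that remodel it. Of 34 matrix proteins, 16 were lower (47.1%) and 1 higher (2.94%), with a median of -0.19, and 6 fell by 2-fold or more. Fibronectin (FN1) read 9.53 and 9.57 with the control and 7.79 and 7.91 with siRNA 2, a difference of -1.70 (SE 0.06, adjusted p = 3.82e-06). PXDN, a peroxidase that cross-links collagen IV, went from 8.75 and 8.81 to 7.05 and 7.08, and SPARC from 8.0 and 8.25 to 6.85 and 6.89. The groups were well apart for all 3. EFEMP1 fell by 1.37 ± 0.07 and SPON1 by 1.40 ± 0.10, and GPC6, a cell-surface proteoglycan, was the member that rose, by 0.32 ± 0.05. No single array moved the lower count of matrix proteins by 1.5 times.

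All 4 TIMP genes were measured and 3 were lower. TIMP3, which binds to the matrix, read 9.33 and 9.25 with the control and 7.17 and 7.63 with siRNA 2, a difference of -1.89 (SE 0.13, adjusted p = 3.8e-05). TIMP1 went from 11.94 and 11.87 to 10.04 and 10.12, a difference of -1.82 (SE 0.05, adjusted p = 2.14e-06). TIMP2 fell by 0.75 ± 0.06, and TIMP4 was not called at 0.05. Among the proteases they inhibit both signs occurred. Of 60 metalloproteases and ADAM proteases, 9 were higher (15.0%) and 5 lower (8.33%), beside 12.5% and 17.4% of all genes. The sheddase ADAM9 rose by 1.11 ± 0.08 and MMP16 by 0.84 ± 0.10, while MMP2 fell by 0.63 ± 0.10 and ADAM17 by 0.41 ± 0.07. The higher count of Matrix metalloproteases and ADAM proteases was 5 without siRNA 2 replicate 2 or control replicate 2. Of these genes, 10 remained with dim genes left out, 4 higher and 5 lower.

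Actin and its regulators had no member called higher. Of 26 such genes, limma called 11 lower (42.3%), with a median of -0.12, and 1 was higher at an unadjusted p below 0.05. Smooth muscle actin (ACTA2) read 9.33 and 9.31 with the control and 7.77 and 7.92 with siRNA 2, a difference of -1.47 (SE 0.06, adjusted p = 6.8e-06). The actin-binding TAGLN2 went from 10.41 and 10.40 to 9.25 and 9.37, and CALD1 and vinculin (VCL) fell by 0.96 ± 0.13 and 0.84 ± 0.05. TAGLN at 0.13 and cytoplasmic actin (ACTB) at -0.01 were not called.

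Receptors of the matrix were mixed. Of 29 integrins, 6 were lower (20.7%) and 2 higher (6.90%), beside 17.4% and 12.5% of all genes. ITGA6, a laminin receptor chain, was lower by 1.26 ± 0.09, the fibronectin receptor chain ITGA5 by 0.64 ± 0.06 and ITGB5 by 0.60 ± 0.06. ITGAV, the partner of ITGB5, rose from 9.01 and 9.07 to 9.90 and 9.84, a difference of 0.83 (adjusted p = 2.47e-05). Of 10 laminin genes, 4 were lower and 1 higher. LAMC1, the gamma chain of most laminins, rose from 9.47 and 9.49 to 10.91 and 10.92, a difference of 1.44 (SE 0.06, adjusted p = 6.05e-06), while its partner chain LAMB1 fell by 0.81 ± 0.05 and LAMA4 by 0.76 ± 0.06. Of 43 collagens, limma called 4 lower and none higher (1 at an unadjusted p below 0.05), a smaller share than over all genes. Only 7 of the 43 Collagens reached the median gene in their mean over the 10 arrays. For Collagens, the lower count was 2 without siRNA 2 replicate 2 or control replicate 1. COL25A1, a collagen of the cell membrane, fell by 0.45 ± 0.06.

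The 3 TGF-beta receptor genes TGFBR1, TGFBR2 and TGFBR3 fell. TGFBR2, which binds the ligand, read 8.24 and 8.34 with the control and 6.84 and 6.83 with siRNA 2, a difference of -1.46 (SE 0.08, adjusted p = 2.04e-05). TGFBR1, the signalling kinase, went from 9.50 and 9.59 to 8.52 and 8.61, and the co-receptor TGFBR3 from 9.67 and 9.74 to 8.90 and 8.96. Over the 32 genes of TGF-beta and BMP signalling and targets, 10 were lower (31.3%) and 7 higher (21.9%), with a median of -0.06. ID3, a target of BMP signalling, fell by 1.01 ± 0.08, whereas SMAD7 at -0.04 and ID1 at -0.11 were not called. The higher count for TGF-beta and BMP signalling and targets was 3 without siRNA 2 replicate 1, and 2 without siRNA 2 replicate 2 or with only the compared arrays.

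Calcium-binding membrane proteins and cell junctions also changed. Of 33 annexins and S100 proteins, 8 were lower (24.2%) and 1 higher, with ANXA4 lower by 1.15 ± 0.12, ANXA3 by 0.94 ± 0.13 and S100A11 by 0.93 ± 0.06. Among 20 cadherins and catenins, 5 were lower and 5 higher: E-cadherin (CDH1), desmoglein DSG2 and plakoglobin (JUP) fell by 0.59 ± 0.08, 0.83 ± 0.06 and 0.73 ± 0.06, and N-cadherin (CDH2) and PKP4 rose by 0.55 ± 0.05 and 0.44 ± 0.06. For Cell adhesion cadherins and catenins, the higher count was 2 without siRNA 2 replicate 2 or control replicate 1 and 3 without siRNA 2 replicate 1 or control replicate 2. The tight junction gene CLDN1 fell by 0.95 ± 0.08.

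**Figure D4:**
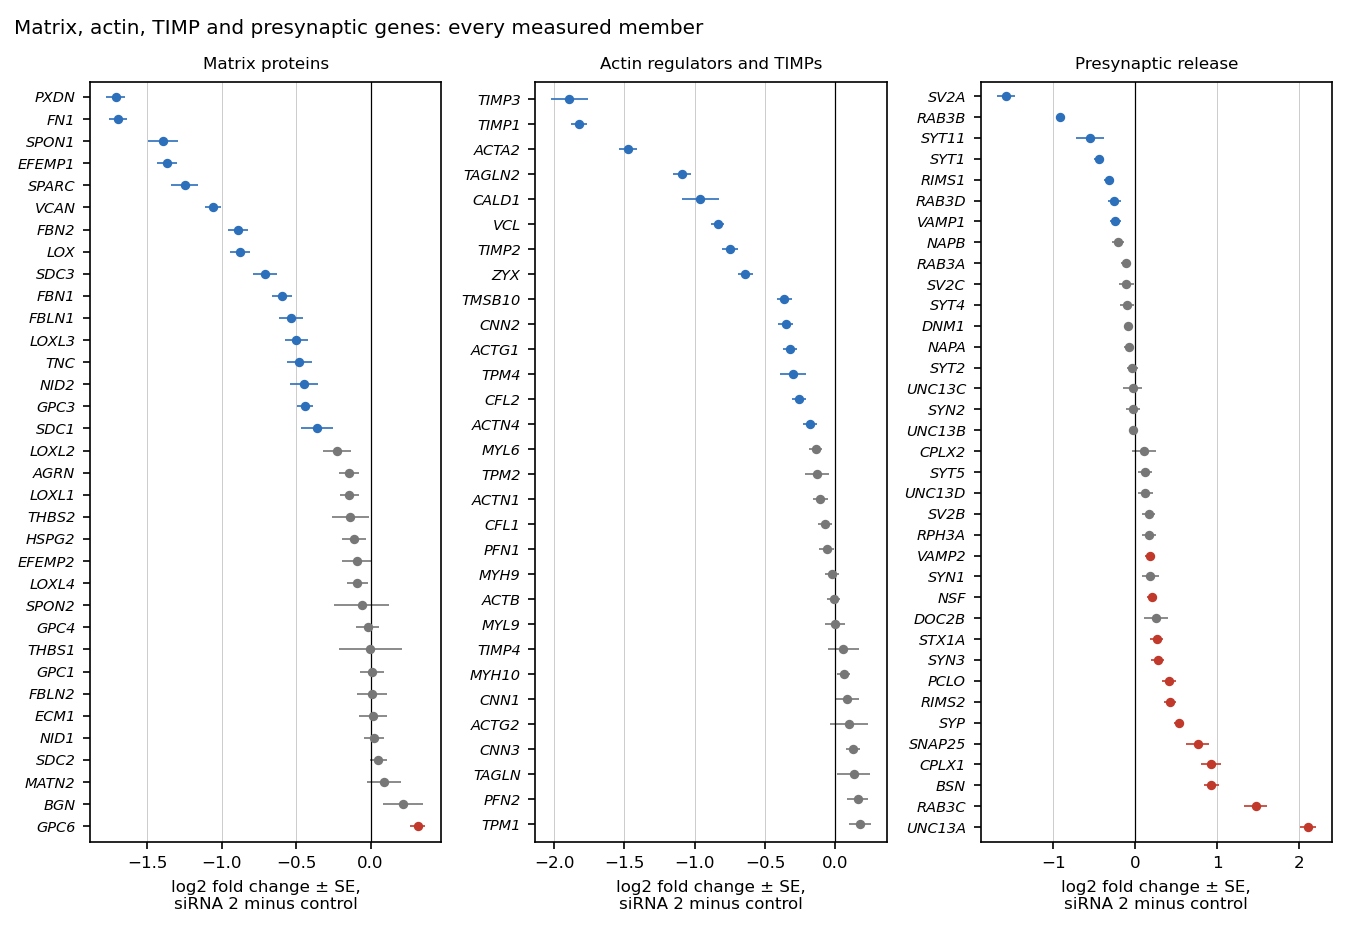
Log2 difference, siRNA 2 minus control, with its standard error for every measured member of the matrix, actin, TIMP and presynaptic groups (blue called lower, red called higher, grey not called). FN1, PXDN, TIMP1 and TIMP3 lie near -1.7 to -1.9, and UNC13A at 2.11 lies farthest to the right.

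Genes of presynaptic vesicle release were called in both directions. Vesicles are held by RAB3 proteins, primed by UNC13 proteins and fused by SNARE proteins under the control of complexin and synaptotagmin, and HEK-293 cells transcribe part of this set. Of 36 genes, 12 were higher (33.3%) and 7 lower (19.4%), with a median of 0.12. RAB3C read 6.84 and 7.09 with the control and 8.35 and 8.53 with siRNA 2, a difference of 1.47 (SE 0.14, adjusted p = 0.000185). The scaffold bassoon (BSN) rose by 0.93 ± 0.09, complexin CPLX1 by 0.93 ± 0.12 and the SNARE protein SNAP25 by 0.76 ± 0.13. The vesicle protein SV2A fell from 8.57 and 8.72 to 6.88 and 7.25, a difference of -1.58 (SE 0.11, adjusted p = 4.17e-05), RAB3B fell by 0.92 ± 0.06 and SYT1 by 0.44 ± 0.06. The counts for Presynaptic vesicle release were 7 higher and 4 lower without siRNA 2 replicate 2 or with only the compared arrays, and 4 were lower without control replicate 1. The balance turned when dim genes, those with a mean over the 10 arrays below the median of all genes, were left out: 14 of the Presynaptic vesicle release genes remained, with 4 higher, 5 lower and a median of -0.09.

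Guidance and adhesion genes of the nervous system held both signs. Of 46 semaphorins, plexins, netrins and SLIT-ROBO genes, 10 were higher (21.7%) and 6 lower. The netrin receptor UNC5C rose by 0.95 ± 0.10 and the SLIT receptors ROBO1 and ROBO2 by 0.70 ± 0.05 and 0.58 ± 0.10, while PLXNA3 and SEMA4F fell by 0.90 ± 0.13 and 0.86 ± 0.06. Of 21 ephrins and receptors, 5 were higher and 2 lower. EPHA7 read 9.52 and 9.62 with the control and 10.94 and 10.93 with siRNA 2, and EPHA6 and EPHA5 rose by 0.91 ± 0.08 and 0.54 ± 0.09, whereas the ligand EFNB3 fell by 0.86 ± 0.14. For Ephrins and their receptors, the lower count was 4 without control replicate 2. Of 42 protocadherins, 4 were higher (9.52%) and 2 lower (4.76%), smaller shares than the 12.5% and 17.4% of all genes. With dim genes left out, 4 protocadherins remained, 2 higher and 0 lower. PCDH9, PCDH10 and PCDH17 rose by 1.25 ± 0.10, 1.05 ± 0.05 and 0.78 ± 0.08, and PCDH20 fell by 1.07 ± 0.12. Only the compared arrays gave 6 higher and 3 lower among Semaphorins, plexins, netrins and SLIT-ROBO, and 8 Protocadherins were higher without control replicate 1 in place of 4.

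Filament-forming proteins were often lower. Of 12 septins, GTPases that form rings and scaffolds, 6 were lower (50%) and 2 higher. SEPTIN3 read 9.74 and 9.80 with the control and 7.50 and 7.73 with siRNA 2, a difference of -2.15 (SE 0.08, adjusted p = 4.26e-06). SEPTIN11 fell by 1.17 ± 0.05 and SEPTIN9 by 0.91 ± 0.05. The lower count of Septins was 3 without siRNA 2 replicate 2 or control replicate 1. Of 28 tubulin genes, 8 were lower and 3 higher, with TUBB2B, a neuronal beta-tubulin, at -1.47 ± 0.07, although tubulin genes are close copies and may share signal. For Tubulins, the higher count was 1 without siRNA 2 replicate 2. Among intermediate filaments, NEFM rose from 10.21 and 10.25 to 11.30 and 11.37, a difference of 1.11 (adjusted p = 1.99e-05), and NEFL, its partner in neurofilaments, fell from 10.30 and 10.20 to 9.69 and 9.80, a difference of -0.51 (adjusted p = 0.000819).

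Transport motors and small GTPases of vesicles were also mixed. The motors KIF5B, KIF1A and KIF3B fell by 0.95 ± 0.06, 0.98 ± 0.07 and 0.83 ± 0.06, and the cytokinesis kinesin KIF23 rose by 0.37 ± 0.05. Of 41 kinesins, 7 were higher (17.1%) and 6 lower (14.6%), beside 12.5% and 17.4% of all genes. For Kinesins, the higher count was 3 without siRNA 2 replicate 2 and 4 without control replicate 1. With only the compared arrays, 2 Kinesins were higher and 5 lower. Of 60 RAB GTPases, 17 were lower (28.3%) and 10 higher (16.7%). RAB39A read 8.02 and 8.09 with the control and 9.38 and 9.63 with siRNA 2, and RAB9A, which acts in return of mannose 6-phosphate receptors from late endosomes, rose by 1.05 ± 0.06. Its paralog RAB9B fell by 0.72 ± 0.06 and RAB8B by 0.78 ± 0.08. Of the RAB GTPases, 6 were higher without siRNA 2 replicate 1 or replicate 2, and 10 were lower and 5 higher with only the compared arrays.

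Calcineurin regulators held a deep fall. RCAN proteins bind and restrain calcineurin, the calcium-activated phosphatase that activates NFAT. RCAN3 read 8.93 and 8.91 with the control and 6.38 and 6.98 with siRNA 2, a difference of -2.24 (SE 0.16, adjusted p = 5.19e-05). RCAN2 fell by 0.88 ± 0.06, and RCAN1 was not called at 0.03. The catalytic subunit gene PPP3CA fell by 0.34 ± 0.06, and in all 5 of 17 genes were lower and 4 higher. For Calcineurin, RCAN and NFAT, the higher count was 0 without siRNA 2 replicate 2 or control replicate 1 and 1 without siRNA 2 replicate 1, and the lower count was 3 without siRNA 2 replicate 2. With dim genes left out, 12 genes remained, 5 higher and 4 lower.

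Wnt and Notch genes held more falls than rises, as did all genes, of which 17.4% were lower and 12.5% higher. Of 29 genes of the Wnt pathway and targets, 7 were lower (24.1%) and 2 higher (6.90%). With only the compared arrays in the fit, 4 of them were lower and 1 higher. LGR5, the R-spondin receptor and Wnt target, read 7.90 and 8.10 with the control and 6.22 and 6.62 with siRNA 2, a difference of -1.58 (SE 0.14, adjusted p = 0.000117). The Wnt inhibitor DKK1 fell by 0.68 ± 0.09, AXIN2, a standard target, by 0.46 ± 0.06 and LEF1 by 0.37 ± 0.05, while TCF7L2 rose by 0.57 ± 0.04. Of 30 Notch genes, 9 were lower (30.0%) and 4 higher (13.3%), and with only the compared arrays 4 were lower and 2 higher. The target HEY1 fell by 0.94 ± 0.05, the DNA-binding factor RBPJ by 0.52 ± 0.05 and NOTCH1 by 0.44 ± 0.06, while the coactivator MAML3 rose by 0.79 ± 0.08 and HES1 was not called at -0.15. For Notch pathway and targets, the higher count was 2 without siRNA 2 replicate 2 or control replicate 2, and the lower count was 5 without siRNA 2 replicate 2 or control replicate 1.

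Several immediate early genes were lower: FOS fell by 0.65 ± 0.11, NR4A1 by 0.60 ± 0.11 and DUSP1 by 0.37 ± 0.07, whereas the ERK inhibitors SPRED1 and SPRY2 rose by 0.70 ± 0.08 and 0.38 ± 0.05. In all, 7 of 34 genes were lower (20.6%) and 4 higher (11.8%), close to the 17.4% and 12.5% of all genes, and EGR1 was not called at -0.50. With dim genes left out, 15 of the 34 remained, 5 lower and 4 higher. For Immediate early and ERK feedback, the higher count was 2 without siRNA 2 replicate 2 or control replicate 2. Of 4 HIPK kinases, HIPK3 read 8.26 and 8.38 with the control and 10.21 and 10.16 with siRNA 2, and HIPK2 rose by 0.52 ± 0.06. Alpha-arrestins parted, with ARRDC3 going from 8.65 and 8.83 to 10.12 and 10.31 and ARRDC4 from 8.97 and 9.12 to 7.68 and 7.98. Of 24 zinc transporters, 7 were higher and 4 lower, with the importers SLC39A6 at 0.68 ± 0.07 and SLC39A8 at -0.82 ± 0.06.

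Patterning genes were mixed. Of 27 HOX genes, 8 were higher (29.6%) and 5 lower, with HOXC8 at 0.74 ± 0.07 and HOXB13 at -0.59 ± 0.07. For HOX genes, the higher count was 4 without siRNA 2 replicate 1, siRNA 2 replicate 2 or control replicate 1, and the lower count was 3 without siRNA 2 replicate 2 or control replicate 1. Of 21 kidney development factors, 5 were lower and 3 higher: WT1 read 7.90 and 7.76 with the control and 7.12 and 7.28 with siRNA 2, GATA3 fell by 0.42 ± 0.05 and SALL1 rose by 0.30 ± 0.06. PAX2 was not called at 0.04. For Kidney development factors, the higher count was 1 without siRNA 2 replicate 2, and the lower count was 2 without siRNA 2 replicate 1 and 3 without siRNA 2 replicate 2 or control replicate 1. Without control replicate 1, 4 Kidney development factors were higher and 3 lower.

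Interferon genes were lower where called. Double-stranded RNA can trigger sensors that induce interferon and its target genes, which is a known side effect of transfected duplexes. Of 41 genes of the interferon and double-stranded RNA response, limma called none higher (1 at an unadjusted p below 0.05) and 13 lower (31.7%), with a median of -0.03. Of the Interferon and double-stranded RNA response genes, 0 to 2 were higher under the alternatives. IFIT1, an interferon-induced RNA-binding protein, read 5.98 and 6.14 with the control and 5.39 and 5.17 with siRNA 2, a difference of -0.78 (SE 0.10, adjusted p = 0.000727), with both groups at signals like those of markers of other cell types. Most of the list was dim: 7 of 41 Interferon and double-stranded RNA response genes reached the median gene in their mean over the 10 arrays, and among these 5 were lower and 1 higher. SAMD9 fell by 1.26 ± 0.14, and IFITM1 and IFITM2, close paralogs whose signal may be shared, fell by 1.41 ± 0.14 and 0.76 ± 0.10. IFNB1 at -0.09, ISG15 at 0.14 (95% interval -0.19 to 0.47) and RIGI at 0.26 were not called. With only the compared arrays, 7 genes of the Interferon and double-stranded RNA response were lower.

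The machinery that duplexes share with microRNAs changed in both directions, with 9 of 26 genes higher (34.6%) and 8 lower (30.8%). The Argonaute partners TNRC6A and TNRC6B rose by 0.62 ± 0.05 and 0.43 ± 0.07, and the deadenylase subunit PAN3 by 0.35 ± 0.06. TARBP2, the partner of Dicer, fell by 0.61 ± 0.06 and the deadenylase CNOT6 by 0.45 ± 0.05. AGO2 at 0.03 and DICER1 at 0.14 were not called. For Small RNA machinery, the lower count was 5 without siRNA 2 replicate 1.

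Ribosomal proteins and proteasome subunits were near the share of all genes for lower calls. Their higher shares differed more from the 12.5% of all genes. Of 65 cytosolic ribosomal proteins, 11 were lower (16.9%) and 3 higher (4.62%). For Cytosolic ribosomal proteins, the higher count was 1 without control replicate 2, and the lower count was 7 without siRNA 2 replicate 1 or control replicate 2. Of 73 mitochondrial ribosomal proteins, 15 were higher (20.5%) and 13 lower (17.8%). Without siRNA 2 replicate 1, 7 Mitochondrial ribosomal proteins were lower, and without siRNA 2 replicate 2, 9 were higher and 8 lower; with only the compared arrays 2 were higher and 4 lower. Of 45 proteasome subunits, 8 were lower (17.8%) and 4 higher (8.89%), but 1 fell deeply. PSMB3, a ring subunit without catalytic activity, read 11.54 and 11.55 with the control and 9.74 and 9.83 with siRNA 2, a difference of -1.76 (SE 0.05, adjusted p = 2.04e-06). For Proteasome subunits, the higher count was 0 without siRNA 2 replicate 2 or control replicate 1, and the lower count was 5 without siRNA 2 replicate 1, siRNA 2 replicate 2, control replicate 1 or control replicate 2. With dim genes left out, 11 Proteasome subunits were higher and 9 lower. Of 49 translation initiation factors, 13 were lower (26.5%) and 7 higher, with EIF4G2 at -1.16 ± 0.06, EIF4G1 at -0.71 ± 0.05 and EIF1AX at -0.88 ± 0.08. For Translation initiation factors, the higher count was 2 without siRNA 2 replicate 2 and 4 without control replicate 1. Among 42 DNAJ co-chaperones, DNAJC8, a splicing-associated member, went from 10.55 and 10.74 to 8.58 and 9.03, and DNAJC15 of the mitochondrion rose from 5.02 and 5.29 to 6.57 and 6.52. Among nuclear pore genes, NUP54 of the central channel fell by 1.06 ± 0.10 and SEH1L by 0.63 ± 0.05, in a group of 7 lower and 6 higher of 27. For Nuclear pore, the higher count was 2 without siRNA 2 replicate 2 or control replicate 1 and 3 without siRNA 2 replicate 1.

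Small nucleolar RNAs guide the modification of ribosomal RNA and are often processed from introns. Of 146 measured, 24 were lower (16.4%) and 3 higher (2.05%), so the lower share was near that of all genes and few were higher. SNORD104 fell by 0.76 ± 0.05 and SNORD50A by 0.57 ± 0.10, while SNORA21 rose by 0.52 ± 0.06. The lower count of Small nucleolar RNAs was 13 without control replicate 2 and 10 with only the compared arrays, and 8 were higher without siRNA 2 replicate 1. Of 483 ZNF zinc finger genes, 67 were higher (13.9%) and 43 lower (8.90%). ZNF850 rose by 0.65 ± 0.07 and ZNF567 by 0.62 ± 0.11, while ZNF770 fell by 0.88 ± 0.07. The higher count of ZNF zinc finger genes was 30 without siRNA 2 replicate 2 and 39 without control replicate 1, the lower count was 27 without siRNA 2 replicate 1, and only the compared arrays gave 27 higher and 16 lower.

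The direct test of siRNA 2 against siRNA 1 asked where the duplexes to the same RNA differed at the same concentration and time. Limma called 6836 of 18404 genes (37.1%) between them: 3348 (18.2%) were higher and 3488 (19.0%) were lower with siRNA 2. The difference itself held no control array, although the controls entered the shared estimate of spread, whereas the differences of each duplex from the control share their control arrays. Of 51 replication genes, 29 were lower (56.9%) and 7 higher (13.7%) with siRNA 2 than with siRNA 1. Against the control, the median of these genes was 0.13 with siRNA 1 and -0.07 with siRNA 2, so the median change was larger in size with siRNA 1. PCNA read 11.35 and 11.36 with siRNA 1 and 10.67 and 10.70 with siRNA 2, a direct difference of -0.67 (adjusted p = 2.54e-05). Of 34 mitosis genes, 16 were lower (47.1%) and 6 higher (17.6%), beside 19.0% and 18.2% of all genes, with a median direct difference of -0.135. Against the control, however, the median of the mitosis genes was 0.21 with siRNA 1 and 0.23 with siRNA 2, a like rise with both duplexes. With the PAXIP1-AS1 siRNA, used at a higher dose, their median change was 0.143. The direct differences were -1.23 for BIRC5 (adjusted p = 2.57e-06) and -0.92 for AURKA (adjusted p = 8.34e-05). CCNE1 read 9.56 and 9.61 with siRNA 1, and its direct difference was -1.45 (adjusted p = 1.04e-05). CCND2 was lower with both duplexes than with the control, and its signal with siRNA 1 (7.21 and 7.13) was below that with siRNA 2, a direct difference of 1.13 (adjusted p = 1.24e-05). CDK6 was not called between the duplexes, at 0.02 (adjusted p = 0.902).

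Each lysosomal group held more genes lower than higher with siRNA 2 than with siRNA 1 as well. Of 40 lysosomal enzymes, 20 were lower (50%) and 9 higher, of 28 membrane and sorting genes 14 were lower and 9 higher, and of 22 proton pump subunits 8 were lower and 5 higher. NEU1 read 9.83 and 9.85 with siRNA 1, a direct difference of -1.31 (adjusted p = 4.01e-06). For LAMP1 the direct difference was -1.26 (adjusted p = 2.86e-06) and for ATP6V0D1 it was -2.55 (adjusted p = 1.75e-07). ATP6AP1, an accessory subunit of the pump, differed the other way: it read 10.22 and 10.20 with siRNA 1 and 11.97 and 11.93 with siRNA 2, a direct difference of 1.73 (adjusted p = 2.17e-06).

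Most amino acid genes were higher with siRNA 2 than with siRNA 1. Of 30 ATF4 targets and amino acid genes, 23 were higher (76.7%) and 1 lower with siRNA 2 than with siRNA 1, with a median difference of 0.50 where all genes had -0.05. Against the control, the median of this group was -0.53 with siRNA 1 and 0.04 with siRNA 2. SLC7A11, the cystine importer, read 9.89 and 10.09 with the control, 7.62 and 7.60 with siRNA 1 and 10.36 and 10.43 with siRNA 2. The siRNA 1 arrays were far below the other 4, and the direct difference was 2.79 (adjusted p = 1.5e-06). ASNS, which makes asparagine, read 8.91 and 9.04 with siRNA 1 and 10.25 and 10.30 with siRNA 2, a direct difference of 1.31 (adjusted p = 4.65e-06), and CTH had a direct difference of 1.78 (adjusted p = 4.98e-06). ARRDC3 read 7.60 and 7.39 with siRNA 1, below its control arrays, and 10.12 and 10.31 with siRNA 2, above them, a direct difference of 2.72 (adjusted p = 3.73e-06).

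Other groups differed between the duplexes in either direction. ZNF zinc finger genes were higher with siRNA 2 than with siRNA 1 in 203 of 483 cases (42.0%) and lower in 26, fatty acid genes were higher in 12 of 21 and lower in 4, and zinc transporters were higher in 12 of 24 and lower in 3. Small nucleolar RNAs were lower in 54 of 146 cases (37.0%) and higher in 2, metallothioneins, which are near-identical copies, were lower in 8 of 13, and of 41 interferon genes limma called 14 lower and none higher (1 at an unadjusted p below 0.05). For each of these groups, the median change from the control was larger in size with siRNA 1 than with siRNA 2. With siRNA 1 and siRNA 2 the medians were -0.17 and 0.05 for ZNF genes and -0.29 and 0.06 for fatty acid genes. They were -0.1 and 0.01 for zinc transporters and 0.12 and -0.08 for small nucleolar RNAs. For metallothioneins they were 0.34 and 0.02, and for interferon genes 0.17 and -0.03. Among matrix genes, 9 of 34 were lower (26.5%) and 6 higher (17.6%), beside 19.0% and 18.2% of all genes. Their median change from the control was similar with the duplexes, at -0.22 with siRNA 1 and -0.19 with siRNA 2. Single members differed, with FN1 at -1.02 (adjusted p = 9.82e-06). TIMP1 had a direct difference of -1.77 (adjusted p = 1.62e-06), whereas TIMP3, lower with both duplexes than with the control, had a direct difference of -0.36 (adjusted p = 0.0605). UNC13A read 5.95 and 5.86 with siRNA 1, a direct difference of 1.95 (adjusted p = 5.92e-06). CALCB, a calcitonin-related peptide gene, read 7.93 and 7.92 with the control, 8.81 and 8.84 with siRNA 1 and 5.93 and 6.15 with siRNA 2, so that the duplexes lay on opposite sides of the control, and the direct difference was -2.79 (adjusted p = 1.5e-06).

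**Figure D5:**
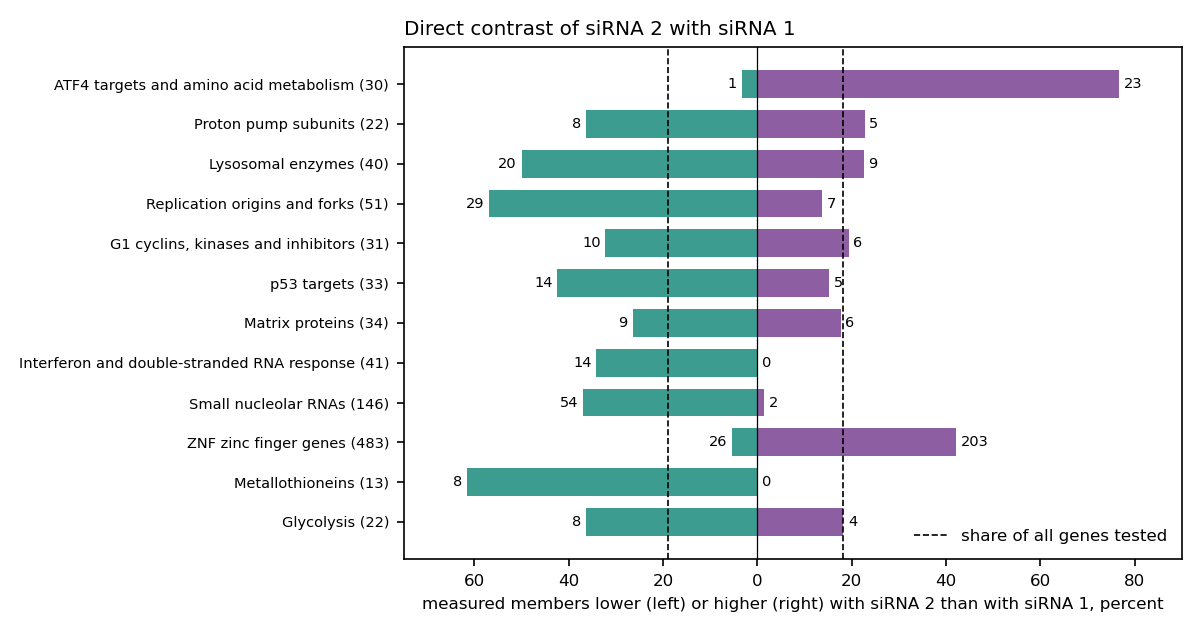
Share of 12 gene groups called lower (left) and higher (right) with siRNA 2 than with siRNA 1, in percent of measured members, with counts; dashed lines mark the share over all genes, 19.0% lower and 18.2% higher. ATF4 and amino acid genes are higher in 23 of 30 cases, and replication genes are lower in 29 of 51.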

How the data were processed

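RNA from HEK-293 cells was measured on 10 Affymetrix arrays. The deposited log2 values per probe set were used; RMA and limma are named per the submitters' processing notes, without versions, and neither the array definition nor the genome build is given in the sources used here. Scanner intensities were not used, and the number of arrays limits the precision. Of 32321 probe sets, 19158 had 1 gene symbol in the platform annotation, 1388 had several and 11775 were unnamed here, and 19128 of the single-gene probe sets matched a RefSeq gene by identifier. For 637 genes with several probe sets, that with the highest mean over the 10 arrays was kept, which left 18404 genes.

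Linear models with empirical Bayes moderation (limma 3.58.1, R 4.3.3) were fitted over all 5 groups of 2 arrays with no covariate (5 residual and 2.87 prior degrees of freedom), and p-values were adjusted by Benjamini and Hochberg over all genes. The procedure was tested on simulated data first. Genes were placed in 97 lists and families, and list members without a probe set of their own were not analysed here. Lists, members and the comparison itself were chosen with earlier results of these data known.

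Named genes were LINC02893, the 20 largest rises and falls among called, non-overlapping genes whose higher group mean reached the median of all genes, up to 4 rises and 4 falls of each group, and preset anchor genes. Cell type markers, TIMP4 and MCM6 were named outside that rule. Promoter windows of 250 bases before each start were taken from RefSeq on GRCh38.p14 and searched on both strands, and a gene counted if any of its windows matched.

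The alternatives tried were array weights, dim genes left out, both control doses, the mean of probe sets, the compared groups only, a further quantile normalisation, an intensity trend with robust prior, a replicate block, and the omission of single arrays.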

Additional observations from a re-analysis of the deposited data

How the results depend on the processing

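With the fit limited to the compared groups, 2788 genes were called in place of 5512, of which 1006 were higher and 1782 lower. This fit rests on fewer arrays. The contrast with siRNA 1, limited in the same way, gave 6080 called genes in place of 6836. Array weights were lowest for the control at 10 nM (0.576) and siRNA 2 (0.755), beside 1.069 to 1.495 for the other groups. A low weight marks a wider spread within the group, so the spread shared over all 5 groups may be too small for this comparison. With dim genes left out, 26 genes were higher by 2-fold or more in place of 46, from fewer genes tested. Leaving out 1 array at a time gave 4190 to 4905 called genes (1630 to 2101 higher and 2560 to 2804 lower), 44 to 61 higher and 193 to 251 lower by 2-fold or more, and a LINC02893 difference of -1.95 to -1.83. Against siRNA 1, it gave 5229 to 6367 called genes. With an array left out, the lone array of its group is assumed to vary like the others.

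With the replicate number as a block, 6329 genes were called against the control and 7777 against siRNA 1. Deviations of same-numbered arrays correlated at 0.493 between control and siRNA 2, at 0.204 to 0.368 between the other groups apart from siRNA 1, and at 0.0674 to 0.0794 between siRNA 1 and the rest. The labels tie no number to a shared batch, culture or day and a group has only 2 numbers, so whether they pair the arrays is not settled, and the block is given as an alternative.

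Of 698 named genes, 657 were called, and 425 of these were called under every alternative that tested them; none changed sign while called. The call was lost for 215 with the compared groups only, 92 with array weights, 19 with a further quantile normalisation, 15 with the trend and robust prior, 10 with the mean of probe sets and 7 with both control doses. It was lost for 73 to 136 without a single array. The causes were not tested. Array weights could not separate the arrays of a group, whose weights were equal, and 2 arrays a group limit every spread given.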
